A study of Mus musculus with 4 samples.

Results

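Among regulatory T (Treg) cells sorted from the liver and spleen of 12-day mice, a small set of cells carried RNA of both Sox4 and Itm2a and none of Gzmb, Ccl5 or Mki67. They numbered 165 of the 8452 neonatal cells with Foxp3 RNA that passed the filters, 28 of them in liver and 137 in spleen, out of 13738 such Foxp3 cells and 24546 barcodes in all libraries. A cell belonged to the set if its barcode had at least 500 detected genes, at most 10% mitochondrial unique molecular identifiers (UMIs, each standing for 1 captured RNA molecule), at least 1 UMI each of Foxp3, Sox4 and Itm2a, and 0 UMIs of Gzmb, Ccl5 and Mki67. Itm2a and Sox4 are often read as marks of a recent arrival from the thymus, which the other genes bear out in part and differently in the 2 tissues, so the cells are called Sox4 Itm2a cells here.

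The samples were CD4+ Foxp3GFP+ cells of C57BL/6 Foxp3GFP mice, enriched on beads, sorted on GFP and sequenced with a 10x Genomics 5' single-cell kit that also enriches T cell receptor RNA. There was 1 library each of liver and spleen from 12-day mice, described in the series' design text as Foxp3GFP-Cre Rosa26loxP-Stop-loxP-YFP, and 1 library each of liver and spleen from 7-week mice, whose stage label reads "aged" and whose full genotype the labels do not give. GFP marks cells that express Foxp3 at the time of the sort. The number of mice behind a library is not given, and with 1 library per group no difference below has a replicate check or a test: intervals are exact 95% intervals and cover counting error only.

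Treg cells are the CD4+ T cells that hold other immune cells in check, and Foxp3 is the transcription factor that defines them. Most arise in the thymus, leave it as quiescent cells that recirculate through spleen and lymph nodes, and finish maturing outside it. Sox4 is a transcription factor of the SoxC group with a known part in lymphocyte precursors, and Itm2a is a small membrane protein that is raised by T cell receptor signals in thymocytes and activated T cells. Gzmb (a cytotoxic protease), Ccl5 (a chemokine) and Mki67 (a marker of dividing cells) mark effector or cycling cells.

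On GRCm38, Sox4 lies on chr13:28948919-28953713 and Itm2a on chrX:107397099-107403376, both on the minus strand (GENCODE vM21). The 250 bases before the RefSeq start of each gene, chr13:28953700-28953949 for Sox4 and chrX:107403361-107403610 for Itm2a on GRCm38.p6, are printed because these are the 2 genes that chose the cells. They read 5' to 3' on the gene's strand, and capitals mark each CG pair.
Sox4: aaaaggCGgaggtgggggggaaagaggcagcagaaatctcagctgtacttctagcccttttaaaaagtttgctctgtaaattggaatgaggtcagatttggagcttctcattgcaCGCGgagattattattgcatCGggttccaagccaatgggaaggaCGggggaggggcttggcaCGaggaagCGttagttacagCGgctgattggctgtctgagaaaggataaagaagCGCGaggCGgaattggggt
Itm2a: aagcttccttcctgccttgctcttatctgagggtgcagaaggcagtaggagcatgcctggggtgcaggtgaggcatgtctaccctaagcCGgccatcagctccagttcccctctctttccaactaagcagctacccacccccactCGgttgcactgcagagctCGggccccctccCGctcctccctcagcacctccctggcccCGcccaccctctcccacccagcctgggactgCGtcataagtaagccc
The Sox4 window held 11 CG pairs at 50.8% G and C and the Itm2a window 6 at 62.8%, against medians of 6 pairs and 52.4% over all promoters of that table. No methylation or binding was measured here, so the windows are context only.

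The neonatal libraries held 32519356 UMIs (liver) and 33813594 UMIs (spleen), and the 7-week libraries 7442185 (liver) and 20246352 (spleen). The neonatal libraries shared 87 barcodes, none of them a Sox4 Itm2a cell. The 28 liver cells summed to 157619 UMIs, with a median of 4238 per cell and a range of 2077 to 18672, against a median of 5036 in the other 4129 liver Foxp3 cells. The 137 spleen cells summed to 1025824 UMIs, with a median of 5883 and a range of 1768 to 24885, against 4948 in the other 4158 spleen Foxp3 cells. Levels are given as UMIs per 1000000 UMIs of the group (CPM). The liver sum is small: 3 counts of a gene, taken as the floor when a gene had none, equal 19.03 CPM in liver and 2.92 CPM in spleen. The deepest liver cell alone gave 11.8% of the liver sum, and the deepest spleen cell 2.43% of the spleen sum.

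Sox4 Itm2a cells made up 0.674% (0.448 to 0.972) of neonatal liver Foxp3 cells and 3.19% (2.69 to 3.76) of neonatal spleen Foxp3 cells. In the 7-week libraries the shares were 0.274% (4 of 1458 cells, 0.0748 to 0.701) in liver and 0.914% (35 of 3828, 0.638 to 1.27) in spleen. The share was thus lower in liver than in spleen at both ages, and the neonatal intervals do not overlap. The excluded genes were more frequent in liver: Gzmb was present in 44.4% of neonatal liver and 11.7% of neonatal spleen Foxp3 cells, and Ccl5 in 49.0% and 16.9%. Of cells without the 3 excluded genes, 2.14% (1.43 to 3.08, of 1309) carried both genes in neonatal liver and 4.52% (3.81 to 5.32, of 3033) in neonatal spleen. The share also moved with sequencing depth. In neonatal spleen it was 1.05% of cells under 3000 UMIs and 4.79% of cells with 8000 or more, whereas in neonatal liver it was 1.01% and 0.526% in the same ranges. Of cells without the excluded genes, the share was higher at the deep end in both tissues, at 2.30% (liver) and 1.32% (spleen) under 3000 UMIs and 4.35% (liver) and 9.93% (spleen) at 8000 or more. When each cell was thinned to 2000 UMIs, leaving out 329 shallower Foxp3 cells of neonatal liver and 318 of neonatal spleen (352 and 548 in the 7-week libraries), the shares were 0.262% in neonatal liver (7 of 2667, 0.106 to 0.540), 0.917% in neonatal spleen (25 of 2727, 0.594 to 1.35) and 0.236% in 7-week spleen (6 of 2546). No cell of 871 remained in thinned 7-week liver, where 3 counts would be 0.344% and the exact upper limit for a count of 0 is 0.423%.

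**Figure D1:**
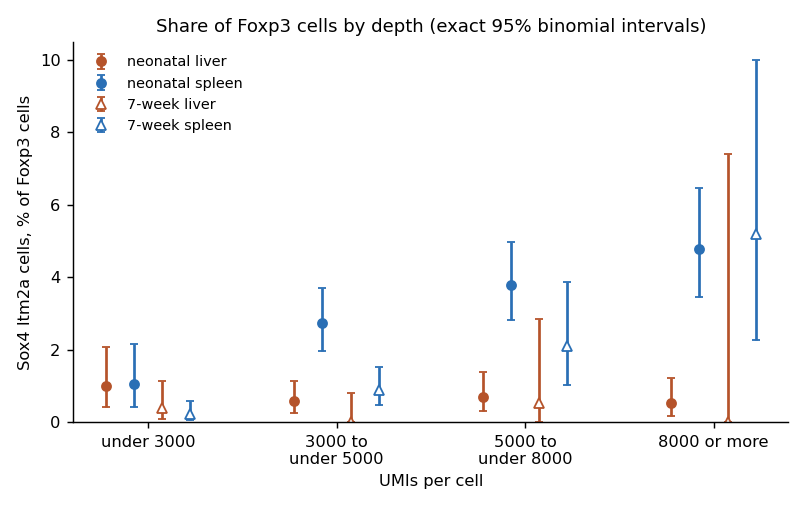
Percent of Foxp3 cells that met the rule (y axis) against the UMIs of the cell in 4 ranges (x axis), for the 4 libraries, with exact 95% binomial intervals. The neonatal spleen share runs higher with each range and reaches 4.79% at 8000 UMIs or more, while the neonatal liver share lies between 0.526% and 1.01% in every range.

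The rule rests on few molecules. Sox4 was a single UMI in 21 of 28 liver cells and 106 of 137 spleen cells, and never more than 2 UMIs in liver or 8 in spleen. Itm2a was a single UMI in 15 liver and 61 spleen cells, with a highest value of 5 in liver and 51 in spleen. Both genes were at exactly 1 UMI in 13 liver and 49 spleen cells, and both at 2 or more in 5 and 19. By construction Sox4 stood at 222 CPM in liver Sox4 Itm2a cells against 4.05 in the other liver Foxp3 cells, and at 182 against 7.83 CPM in spleen. Itm2a stood at 324 against 57.7 CPM in liver and at 500 against 143 CPM in spleen. Just outside the rule were 41 liver and 92 spleen cells with Sox4 but no Itm2a, 336 and 1129 with Itm2a but no Sox4, and 18 and 46 barcodes that lacked a Foxp3 UMI. A further 13 liver and 33 spleen cells missed the rule by 1 of the excluded genes.

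Free RNA in a droplet can give a single UMI, so the background of each gene was read in barcodes of other lineages, defined by B cell, myeloid and MHC class II markers. Sox4 was in 2.86% of neonatal liver and 6.68% of neonatal spleen Foxp3 cells (median 5035 and 4981 UMIs). It was in 2 of 19 such other barcodes in liver (10.5%, 1.30 to 33.1, median 3158 UMIs) and 1 of 63 in spleen (1.59%, 0.0402 to 8.53, median 954 UMIs). The Sox4 share of Foxp3 cells was therefore not above this background beyond counting error, and a single Sox4 UMI cannot be told apart from free RNA. B cell precursors are themselves known to express Sox4. Itm2a was in 23.3% of liver Foxp3 cells (59.3 CPM), against 1 of 19 other barcodes (5.26%, 0.133 to 26.0), so it too was not above background beyond counting error there. In spleen it was in 39.6% of Foxp3 cells (157 CPM), above the other barcodes, where it was in 7 of 63 (11.1%, 4.59 to 21.6, 75.4 CPM) at lower depth. Among cells without the excluded genes, Itm2a was in 40.6% of cells with Sox4 and 27.1% of cells without it in liver, and in 59.8% and 40.3% in spleen. In spleen that order held in each of the 4 depth ranges. In liver it held in 3 of them, while from 3000 UMIs to under 5000 the shares were 28.6% with Sox4 and 29.2% without it.

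The cells carried the T cell and Treg markers that the sort implies. All 5 T cell markers were detected and every Sox4 Itm2a cell had at least 1 of them, with sums of 3794 against 4184 CPM in liver and 3693 against 4066 CPM in spleen. Foxp3 was at 539 against 522 CPM in liver and 458 against 527 CPM in spleen. Ikzf2, which encodes Helios, was at 431 against 500 CPM in liver and 408 against 439 CPM in spleen. All 5 Treg markers together, Foxp3 among them, summed lower, to 1656 against 2325 CPM in liver and 1777 against 1987 CPM in spleen. Markers of several other cells were absent from the liver cells: macrophage, neutrophil, NK cell, erythroid, hepatocyte and platelet markers were all at 0. In the other liver Foxp3 cells these lists stood at only 0.50 to 13.3 CPM, under the floor of 19.03 CPM. With 28 cells the upper limit for 0 is 12.3% of cells, so these zeros do not set the cells apart. Markers of CD8 T cells or thymocytes summed higher, at 25.4 against 9.99 CPM in liver (4 UMIs in 4 cells) and 32.2 against 18.7 CPM in spleen (33 UMIs in 9 cells), with Rag1, Rag2 and Ptcra at 0. By cells the spleen order was the reverse, with 6.57% of Sox4 Itm2a cells against 8.13% of the others having a UMI. There, 12 of 21 Cd8b1 UMIs and 9 of 10 Cd8a UMIs lay in 1 cell each. Of the endothelial list only Pecam1 was detected, at 69.8 against 46.3 CPM in liver and 60.4 against 58.4 CPM in spleen. Of the dendritic cell list only Cd74 was, at 19.03 against 133 CPM for the list in liver and 83.8 against 110 CPM in spleen, where 24.1% against 19.7% of cells had a UMI. B cell markers summed to 495 against 646 CPM in liver and 185 against 440 CPM in spleen, mostly Ighm, with Ms4a1 and Pax5 at 0 in both. Erythroid markers summed to 28.3 against 359 CPM in spleen. The part of these differences in the results below was not tested beyond leaving out cells with such markers.

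The name of recent thymic emigrant was checked against 13 other genes of thymic output, of which 7 reached 25 CPM. In liver, 5 of the 7 were at least 2-fold higher in Sox4 Itm2a cells, with a median log2 ratio of 2.15, beside a share of 8.96% of all tested genes called higher there. In spleen 1 of 7 was called, beside 1.51% of all tested genes, with a median of 0.34: Hivep3, at 56.5 against 27.5 CPM (2.05-fold, 1.54 to 2.69). Against other Foxp3 cells that also lacked the excluded genes, the medians were 0.97 in liver and 0.06 in spleen. Among cells without the excluded genes, the spleen list sum was 727 CPM with both genes and 843 with Sox4 alone. It was 692 CPM with Itm2a alone and 683 with neither. In liver the same sums were 1053, 885.5, 742 and 656 CPM. Cd24a, a surface protein lost as thymocytes mature, was at 19.03 against 6.67 CPM in liver (3 UMIs) and 18.5 against 6.29 CPM in spleen (2.95-fold, 1.73 to 4.76). Ccr9, a homing receptor of thymocytes and gut cells, was at 6.34 against 2.28 CPM in liver (1 UMI) and at 13.7 against 3.97 CPM in spleen (3.44-fold, 1.81 to 6.04). Cd24a and Ccr9 stayed under the 25 CPM limit in both tissues and so were not called. The thymocyte genes Rag1, Rag2 and Ptcra, which serve receptor rearrangement and the pre-T cell receptor, were at 0 in both tissues, and Dntt had 2 UMIs in 1 spleen cell. Il7r, the survival receptor that rises during maturation, was at 203 against 131 CPM in liver and 68.2 against 110 CPM in spleen. The thymocyte list had median log2 ratios of 0.69 in liver and 0.25 in spleen. Against cells without the excluded genes these were 0.15 and 0.06. The list of post-thymic maturation genes had a median of 0.65 in liver, thus higher, and −0.09 in spleen. Against cells without the excluded genes its medians were −0.01 and −0.29. Some of these genes and lists thus stood as the name implies and others did not.

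In neonatal liver the genes of quiescent, recirculating T cells stood higher in Sox4 Itm2a cells. Of the 18 listed genes 17 reached 25 CPM, and all 17 were above the other Foxp3 cells and 13 were at least 2-fold above, with a median log2 ratio of 1.45 beside 0.02 over all 5526 genes tested. Leaving out each cell in turn kept this median between 1.40 and 1.59. Ccr7, the chemokine receptor that brings T cells into lymphoid tissue, was at 907 against 133 CPM (6.83-fold, 5.74 to 8.08) and was present in 25 of 28 cells, or 89.3%, against 20.7% of the other cells. The transcription factors of quiescent and memory T cells followed: Tcf7 was at 222 against 47.0 CPM (4.72-fold, 3.27 to 6.60). Lef1 was at 374 against 130 CPM (2.88-fold, 2.19 to 3.72). Klf2, which drives the exit and homing receptors, was at 1224 against 478 CPM (2.56-fold, 2.21 to 2.95). Foxo1, a transcription factor that holds T cells in quiescence, was at 336 against 125 CPM (2.70-fold, 2.02 to 3.54). All these intervals lie above 2.

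The distance was smaller against cells chosen the same way for the excluded genes. Of the liver Foxp3 cells only 31.5% lacked the excluded genes, and against those alone 5 of the 17 genes were at least 2-fold higher and the median was 0.82, beside 6.99% of all tested genes called higher. Ccr7 was then at 907 against 353 CPM (2.57-fold), Tcf7 at 222 against 107 CPM (2.07-fold) and Igfbp4 at 273 against 125 CPM (2.18-fold). Klf2 was at 1224 against 1008 CPM (1.21-fold). Igfbp4, an insulin-like growth factor binding protein high in naive T cells, was in 9 of the 28 cells. Counting cells rather than molecules, 24 of 28 cells (85.7%) had a resting-list level above the median of those comparison cells, at a median of 64.0 against 45.0 list UMIs per 10000. Tcf7 was at a log2 ratio of 0.86 when cells with any marker of another lineage were left out, under the 2-fold limit.

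Other genes high in the liver cells, against all other liver Foxp3 cells, had several roles. Against only those without the excluded genes, 28 of 83 named liver genes moved and 2 reversed. Gpr83, a receptor found on Treg cells, was at 184 against 28.4 CPM (6.49-fold, 4.32 to 9.40). Bcl2, which protects T cells from death, was at 159 against 32.7 CPM (4.85-fold, 3.12 to 7.22). Pik3ip1, an inhibitor of PI3 kinase, was at 88.8 against 12.8 CPM (6.93-fold, 3.75 to 11.8, 14 UMIs). Satb1, a chromatin organiser of thymocytes, was at 108 against 22.0 CPM (4.91-fold, 2.84 to 7.94, 17 UMIs). Btg2, which restrains proliferation, was at 355 against 109 CPM (3.28-fold, 2.47 to 4.27), but with 2 or more UMIs of both Sox4 and Itm2a its log2 ratio was −0.56. Fos was at 343 against 143 CPM (2.40-fold), while the immediate-early list had a median of 0.12, with 4 of 11 genes called higher. In all, 495 genes (8.96%) were called higher and 576 (10.4%) lower in liver. In simulated data, counting error alone led to a call for 9.68% of unchanged genes in this comparison. A single liver call is thus not by itself a difference. Most of the higher calls rest on few molecules: with at least 30 UMIs in the higher group, 24 of 3108 genes (0.772%) were higher and 576 (18.5%) lower. This limit removes higher calls of the small liver sum but no lower calls, which can also rest on few molecules. The shares are thus not a balance of directions. Against cells without the excluded genes, 7 of 3063 genes (0.229%) were higher and 442 (14.4%) lower at that limit. Scaling moved the liver comparison, since TMM factors brought the median of all genes to −0.21 and totals without the most abundant gene classes to 0.15, beside 0.02 as reported. The calls then split into 257 higher and 782 lower under TMM and 833 higher and 589 lower with the other totals, beside 495 and 576.

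In neonatal spleen the same cells stood out by ribosome biogenesis genes and not by the resting list. Of 15 genes for making ribosomes, Myc included, all 15 were above the other Foxp3 cells and 5 were at least 2-fold above, with a median log2 ratio of 0.81 beside 0.003 over all 5027 genes tested, of which 1.51% were called higher. Leaving out each cell in turn gave 0.75 to 0.83. Myc, the transcription factor that drives cell growth, was at 253 against 109 CPM (2.32-fold, 2.03 to 2.64), in 56 of 137 cells or 40.9% against 24.6%. Nop16, a nucleolar protein of large subunit assembly, was at 115 against 47.4 CPM (2.43-fold, 1.99 to 2.94). Gnl3, or nucleostemin, was at 82.9 against 36.8 CPM (2.25-fold, 1.78 to 2.81). Nolc1, a nucleolar chaperone, was at 141 against 66.6 CPM (2.12-fold, 1.78 to 2.52). Rrp9, a part of the U3 particle that processes ribosomal RNA, was at 63.4 against 29.8 CPM (2.13-fold, 1.62 to 2.74). The nucleolar proteins nucleolin and nucleophosmin were higher by less than 2-fold, with Ncl at 808 against 473 CPM (1.71-fold, 1.59 to 1.83) and Npm1 at 1612 against 1041 CPM (1.55-fold, 1.47 to 1.63). Nop2, an RNA methyltransferase of the nucleolus, was at 34.1 against 25.9 CPM (1.32-fold, 0.909 to 1.85), an interval that includes 1.

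Against spleen cells that also lacked the excluded genes, the ribosome biogenesis median was 0.83, with 4 genes at least 2-fold higher beside 1.57% of all genes tested there. The depth of the cells moved it more. Among cells of 3000 to 6000 UMIs the log2 ratio of Nop16 was 0.75, that of Gnl3 0.64 and that of Rrp9 0.54, so none of these reached 2-fold, and Myc was at 0.94. Per cell, 86 of 137 (62.8%) had a ribosome biogenesis level above the median of the comparison cells, with a median of 22.8 against 19.1 list UMIs per 10000 and a range of 0 to 141. In liver none of the 12 list genes at 25 CPM was called and the median was 0.12, with a leave-one-out range of −0.36 to 0.21. Ncl there was at 425 against 408 CPM (1.04-fold, 0.807 to 1.33) and Myc at 114 against 70.3 CPM (1.62-fold, 0.960 to 2.57, in 5 cells). The deepest liver cell held 28 of the 67 Ncl UMIs.

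Myc protein binds the letters CACGTG, and the list holds known Myc targets, so these promoters are shown for the gene with the highest spleen ratio of those with an entry and for the 1 that holds the motif. The motif is its own reverse complement, so 1 search covers both strands. The windows are the 250 bases before the RefSeq start on GRCm38.p6, chr13:54590075-54590324 on the minus strand for Nop16 and chr6:125131633-125131882 on the plus strand for Nop2, 5' to 3' on the gene's strand, with CACGTG in capitals.
Nop16: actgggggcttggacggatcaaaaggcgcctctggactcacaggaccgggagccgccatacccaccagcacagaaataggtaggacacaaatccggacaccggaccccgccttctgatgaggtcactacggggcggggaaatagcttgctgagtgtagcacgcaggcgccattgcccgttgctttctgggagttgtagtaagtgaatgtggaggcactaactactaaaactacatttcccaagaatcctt
Nop2: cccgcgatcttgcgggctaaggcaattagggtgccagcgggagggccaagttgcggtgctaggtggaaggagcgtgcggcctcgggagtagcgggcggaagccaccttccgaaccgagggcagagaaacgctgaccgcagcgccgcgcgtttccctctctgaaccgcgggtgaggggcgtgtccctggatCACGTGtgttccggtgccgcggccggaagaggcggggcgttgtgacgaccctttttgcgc
CACGTG was in 1 of the 11 ribosome biogenesis promoters with an entry, that of Nop2, and in 1854 of all 27025 promoters (6.86%). It was not in the Nop16 window, which says only that these letters are not in those bases.

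The genes with the highest spleen ratios were otherwise of mixed roles. Cldn10, a tight junction protein, was at 60.4 against 12.5 CPM (4.86-fold, 3.63 to 6.40) in 29 cells. Shmt1, an enzyme of folate metabolism, was at 60.4 against 15.2 CPM (3.99-fold, 2.996 to 5.23). Lad1, a filament-anchoring protein, was at 134 against 34.1 CPM (3.91-fold, 3.24 to 4.69). Eno3, an enolase best known from muscle, was at 259 against 76.7 CPM (3.38-fold, 2.96 to 3.85) in 75 of 137 cells (54.7%) against 20.7% of the other cells. Srm, the spermidine synthase, was at 200 against 68.3 CPM (2.93-fold, 2.52 to 3.39), but its log2 ratio of 1.55 became 0.49 among cells of 3000 to 6000 UMIs. Eno3 and Cldn10 kept log2 ratios of 1.63 and 2.21 in that depth range. Gsta4, a glutathione transferase, was higher in both tissues, at 95.2 against 21.3 CPM in liver (4.48-fold, 2.49 to 7.45) and 249 against 88.6 CPM in spleen (2.81-fold, 2.46 to 3.20). Actg2 was at 106 against 39.7 CPM in spleen, with 42 of its 109 UMIs in 1 cell. The resting list had a spleen median of 0.09 with 1 gene higher and 1 lower, beside 1.51% and 2.71% of all genes. Against spleen cells without the excluded genes its median was −0.137, with a leave-one-out range of −0.187 to −0.112. Ccr7 was at 254 against 179 CPM (1.42-fold) in spleen, over all other Foxp3 cells.

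**Figure D2:**
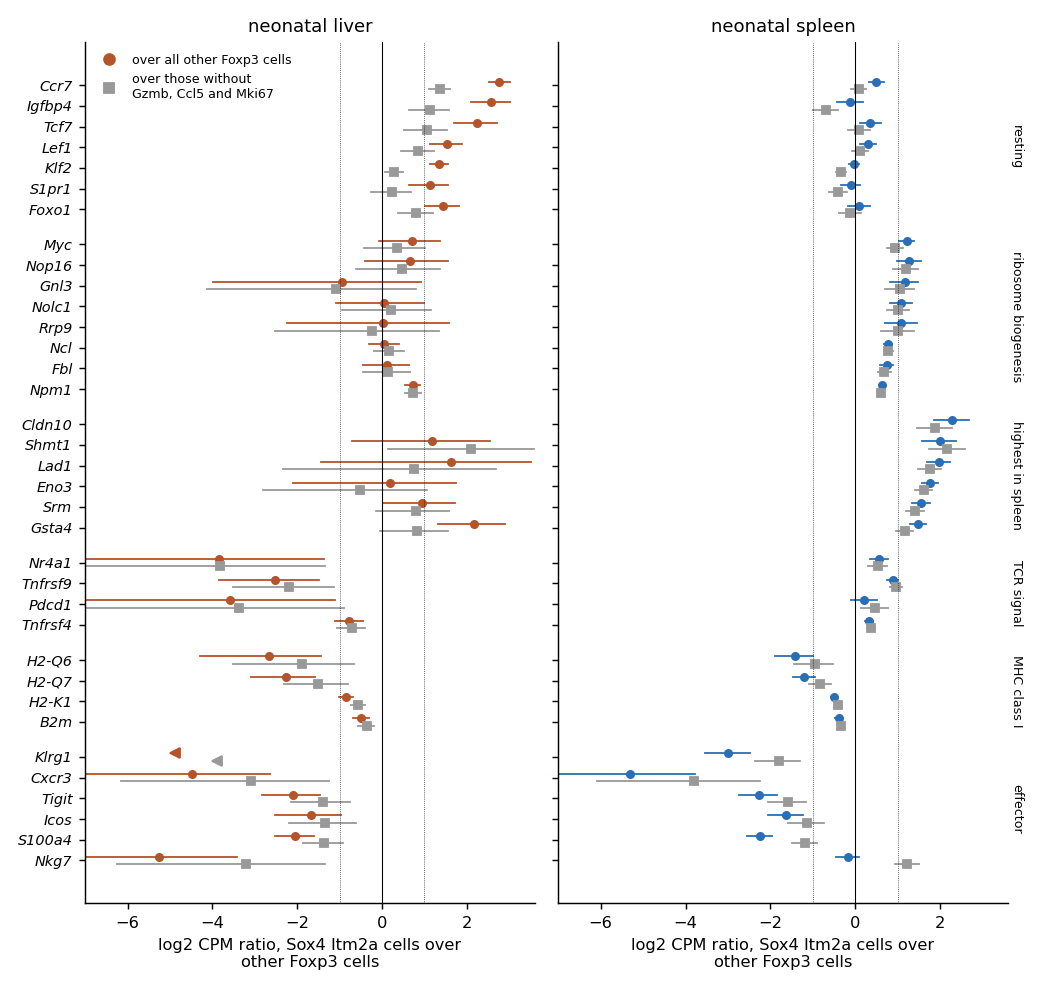
Log2 ratio of CPM (x axis) in Sox4 Itm2a cells over all other Foxp3 cells (coloured circles) and over those without Gzmb, Ccl5 and Mki67 (grey squares), for named genes grouped by role, in neonatal liver and neonatal spleen panels. Lines are exact 95% intervals, cut at the axis limits, triangles are bounds for a count of 0 and dotted lines mark 2-fold; resting genes such as Ccr7 (6.83-fold) lie right in liver, and ribosome biogenesis genes such as Nop16 (2.43-fold) lie right in spleen.

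T cell receptor signal genes went apart between the tissues. Of the 19 listed genes 14 reached 25 CPM in liver, and 7 of them were at least 2-fold lower in Sox4 Itm2a cells, with a median log2 ratio of −0.96, beside 10.4% of all genes called lower. In spleen none was called lower and 2 of 15, Myc and Irf4, were higher, with a median of 0.25. With 2 or more UMIs of both Sox4 and Itm2a the log2 ratio of Irf4 was −0.33. Tnfrsf9, the costimulatory receptor 4-1BB, was at 44.4 against 255 CPM in liver (5.73-fold lower, 2.78 to 14.3), in 5 of 28 cells against 42.9%. In spleen it was at 494 against 267 CPM (1.85-fold, 1.69 to 2.02), in 62.0% against 42.3% of cells. Nr4a1, or Nur77, an immediate reporter of receptor signals, had 1 UMI in the liver cells (6.34 against 90.6 CPM) and was at 183 against 123 CPM in spleen (1.49-fold, 1.28 to 1.72). Irf4, which rises with the strength of that signal, had 0 UMIs in liver Sox4 Itm2a cells, where the floor of 3 counts is 19.03 CPM. In spleen Irf4 was at 26.3 against 11.03 CPM (2.39-fold, 1.54 to 3.55). Itm2a, a gene of the rule, is itself raised by such signals, so these values are not independent of how the cells were chosen. In spleen, cells with 2 or more Itm2a UMIs had Nr4a1 at 235 CPM and Tnfrsf9 at 614 CPM, against 102 and 307 CPM in those with 1 Itm2a UMI.

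MHC class I genes were lower in Sox4 Itm2a cells of both tissues. In liver 10 of 11 were below the other Foxp3 cells and 3 were at least 2-fold lower, beside 10.4% of all genes called lower, with a median log2 ratio of −0.85. In spleen all 11 were below and 2 were at least 2-fold lower, beside 2.71% of all genes called lower, with a median of −0.54. H2-Q7, which encodes Qa2, a class I molecule gained after T cells leave the thymus, was at 102 against 491 CPM in liver (4.84-fold lower, 2.98 to 8.47) and 125 against 289 CPM in spleen (2.31-fold lower, 1.94 to 2.78). Its neighbour H2-Q6 was at 31.7 against 202 CPM in liver (6.35-fold lower, 2.72 to 19.6) and 41.9 against 112 CPM in spleen (2.67-fold lower, 1.98 to 3.70). H2-Q6 and H2-Q7 are near copies that can share reads, so they count as 1 signal. The classical H2-K1 was at 1846 against 3318 CPM in liver and 2093 against 2958 CPM in spleen, and B2m, the shared light chain, at 1497 against 2115 and 1413 against 1855 CPM. Against cells without the excluded genes the spleen list kept all 11 below with none called, beside 1.36% of genes called lower, and H2-Q7 stood at 125 against 220 CPM. In liver 6 of 28 cells lay above the comparison median of 82.9 list UMIs per 10000, and in spleen 39 of 137 (28.5%) lay above 84.3. Interferon-response genes were lower in spleen as well, all 11 below the other cells, with a median of −0.52 and 3 called.

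Effector genes were lower in both tissues, a direction that the exclusion of Gzmb and Ccl5 helps to set. Of 25 listed genes, 20 reached 25 CPM in liver and 19 in spleen, and 15 and 12 of these were at least 2-fold lower, beside 10.4% and 2.71% of all genes, with medians of −1.87 and −1.43. Against cells that also lacked the excluded genes, the counts were 12 of 19 in liver, beside 8.1% of all genes called lower, and 7 of 18 in spleen, beside 1.36%, with medians of −1.34 and −0.81. Cxcr3, a homing receptor for inflamed tissue, had 2 UMIs in liver Sox4 Itm2a cells (12.7 against 284 CPM) and 3 in spleen (2.92 against 117 CPM, 39.9-fold lower, 13.6 to 194). Klrg1, a receptor of terminal effector cells, was at 0 against 565 CPM in liver, at least 29.7-fold lower. In spleen it was at 30.2 against 240 CPM, and all 31 of its UMIs came from 1 cell. Maf, a transcription factor of effector Treg cells, was at 0 against 140 CPM in liver, at least 7.34-fold lower, and at 12.7 against 82.6 CPM in spleen (6.51-fold lower, 3.80 to 12.3). Tigit, an inhibitory receptor, was at 121 against 514 CPM in liver and 42.9 against 207 CPM in spleen. Icos was at 95.2 against 305 CPM in liver and 49.7 against 155 CPM in spleen. Single cells stood apart: 90 of 102 S100a4 UMIs and 183 of 269 S100a6 UMIs of the spleen set lay in 1 cell each, and S100a6 was at 262 against 1632 CPM with that cell included. Receptors for interferon gamma and interleukin 10 were also low against all other Foxp3 cells. Ifngr1 was at 209 against 593 CPM in liver and 101 against 266 CPM in spleen, and Il10ra at 25.4 against 91.9 and 13.7 against 41.9 CPM. The cytokine receptor list as a whole had median log2 ratios of 0.001 in liver and −0.26 in spleen. Against cells without the excluded genes these were −0.21 and −0.435.

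**Figure D3:**
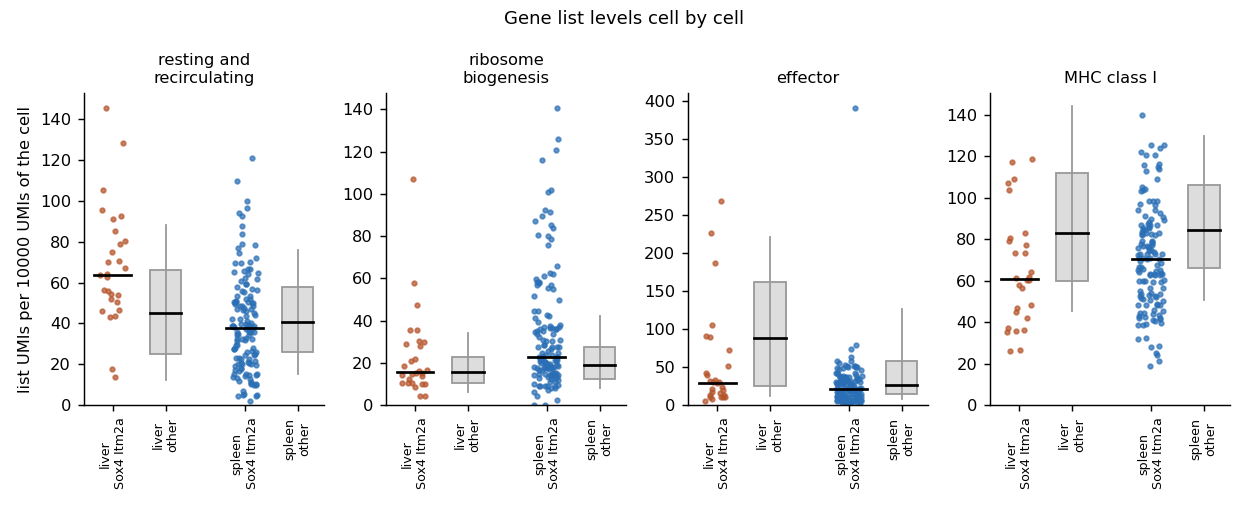
List UMIs per 10000 UMIs of a cell (y axis) for 4 gene lists, with each Sox4 Itm2a cell as a point and their median as a bar, beside the other Foxp3 cells without Gzmb, Ccl5 and Mki67 as a box of quartiles with a line between the 10th and 90th percentiles. The resting list has medians of 64.0 against 45.0 in liver and 37.9 against 40.8 in spleen, and MHC class I medians are lower in both tissues, 61.0 against 82.9 and 70.3 against 84.3.

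Many genes lower in spleen were also lower in liver. Of 2902 genes tested in both tissues with at least 30 UMIs in the higher group, 489 were called lower in liver and 116 in spleen, and 82 were shared, which is 16.8% of the liver list and 70.7% of the spleen list. A further 4 were lower in liver and higher in spleen. Over all genes so filtered in spleen, 1.46% were called higher and 2.83% lower. The filter leaves few higher genes to compare, 24 in liver and 8 in spleen, so their overlap is not read. Against cells without the excluded genes, 24 lower genes were shared, 6.50% of 369 in liver and 52.2% of 46 in spleen. Over all genes so filtered, 0.229% were called higher and 14.4% lower in liver, and 1.45% and 1.43% in spleen.

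Set directly against each other, liver and spleen Sox4 Itm2a cells differed at least 2-fold in 618 genes higher in liver (11.2%) and 539 lower (9.75%) of 5530, and with at least 30 UMIs in 43 (1.49%) and 451 (15.6%) of 2891. The UMI limit falls mainly on the smaller liver sum. Under TMM the split was 398 higher and 645 lower. Between the comparison cells of the same tissues, 2.01% of genes were called higher in liver and 0.547% lower. Their sums were much larger, 5947960 UMIs in liver and 14929601 in spleen, against 157619 and 1025824 in Sox4 Itm2a cells. In simulated data, counting error alone led to calls for 12.5% of unchanged genes between the Sox4 Itm2a sums. The shares of these comparisons are therefore not read against each other. The resting list was higher in liver, 7 of 18 genes at least 2-fold with 1 lower and a median of 0.79, whereas between the comparison cells of the 2 tissues the median was −0.09. Ccr7 was at 907 against 254 CPM (3.58-fold, 2.90 to 4.41), beside 1.47-fold between the comparison cells. Receptor signal genes were lower in liver, 6 of 15 at least 2-fold and 14 of 15 below, with a median of −0.90 beside −0.24 between the comparison cells. Tnfrsf9 was at 44.4 against 494 CPM (11.1-fold lower, 5.36 to 27.8), while in the comparison cells it was at 202 against 253 CPM (1.25-fold lower). Ribosome biogenesis genes were lower in liver in 14 of 15, 6 of them at least 2-fold, with a median of −0.93 beside −0.42. The cells also differed in depth, with median UMIs of 4238 in liver and 5883 in spleen. The part of depth in this list difference was not tested. Eno3 was at 19.03 against 259 CPM (13.6-fold lower, 4.61 to 66.5). In the summed counts, effector genes were higher in liver, 8 of 16 at least 2-fold, with a median of 1.07. The comparison cells differed as much, at 1.12. The liver sum was not spread evenly over the cells. Per cell, the median effector level was 29.5 list UMIs per 10000 in liver and 20.8 in spleen Sox4 Itm2a cells. In the comparison cells it was 87.9 in liver and 26.6 in spleen. Of the 28 liver Sox4 Itm2a cells, 6 lay above that liver median, and the full range was 5.63 to 269. Immediate-early genes were also higher in liver, 6 of 11 with a median of 1.12, Fos at 343 against 82.9 CPM (4.14-fold). Lgals3 was at 216 against 20.5 CPM (10.5-fold, 5.94 to 19.1), but 16 of its 34 liver UMIs came from 1 cell. With 1 library of each, tissue, animals and preparation cannot be told apart.

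**Figure D4:**
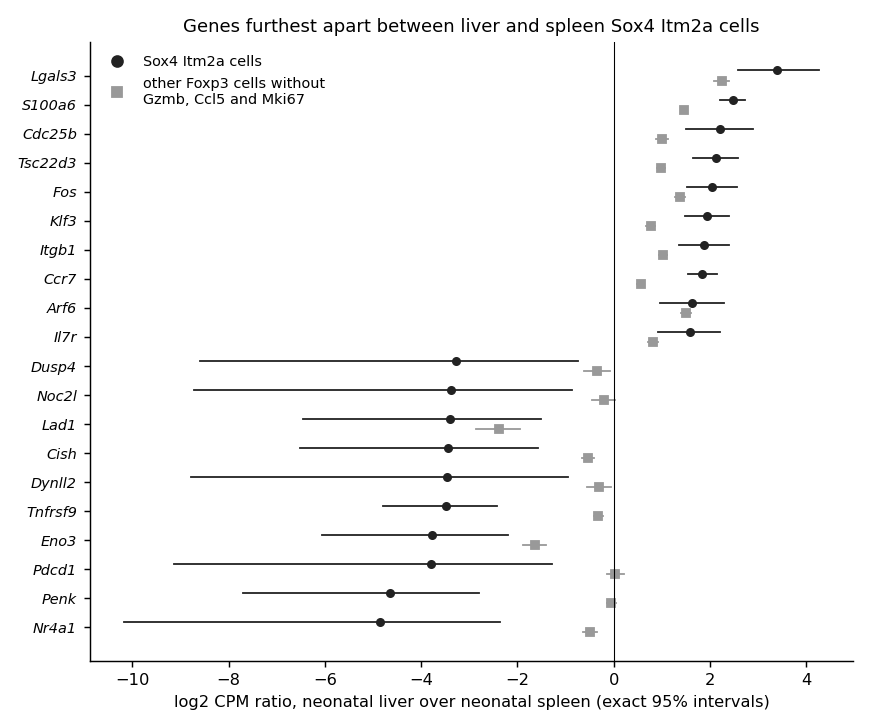
Log2 ratio of CPM, liver over spleen (x axis), for 20 genes in Sox4 Itm2a cells (black circles) and in other Foxp3 cells without Gzmb, Ccl5 and Mki67 (grey squares), with exact 95% intervals. Ccr7 is 3.58-fold higher in liver Sox4 Itm2a cells and 1.47-fold in the comparison cells, and Tnfrsf9 is 11.1-fold lower in liver Sox4 Itm2a cells, and at 202 against 253 CPM in the comparison cells.

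Cells with 1 of the 2 marker genes show how the levels lie around the rule, among Foxp3 cells without the excluded genes. In liver Ccr7 was at 907 CPM with both genes, 702 with Sox4 alone, 480 with Itm2a alone and 280 with neither. Cxcr3 in liver was at 12.7, 16.2, 77.0 and 127 CPM in the same order, so cells with Sox4 alone lay nearer to those with both than cells with Itm2a alone did. In spleen Ncl was at 808, 561, 533 and 403 CPM and Eno3 at 259, 127, 116 and 52.2 CPM, where each gene alone gave about the same level. Tnfrsf9 in spleen was at 494, 253, 314 and 196 CPM. H2-Q7 was at 102, 184, 227 and 318 CPM in liver and 125, 186, 188 and 252 CPM in spleen, lowest with both and highest with neither in each tissue. Igfbp4 did not keep this order in spleen, at 95.5, 236, 149 and 155 CPM. Depth was not equal between these sets: the median UMIs in liver were 4238 with both genes, 3828 with Sox4 alone, 4407 with Itm2a alone and 4072 with neither. In spleen they were 5883, 4647, 5307 and 4167.

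**Figure D5:**
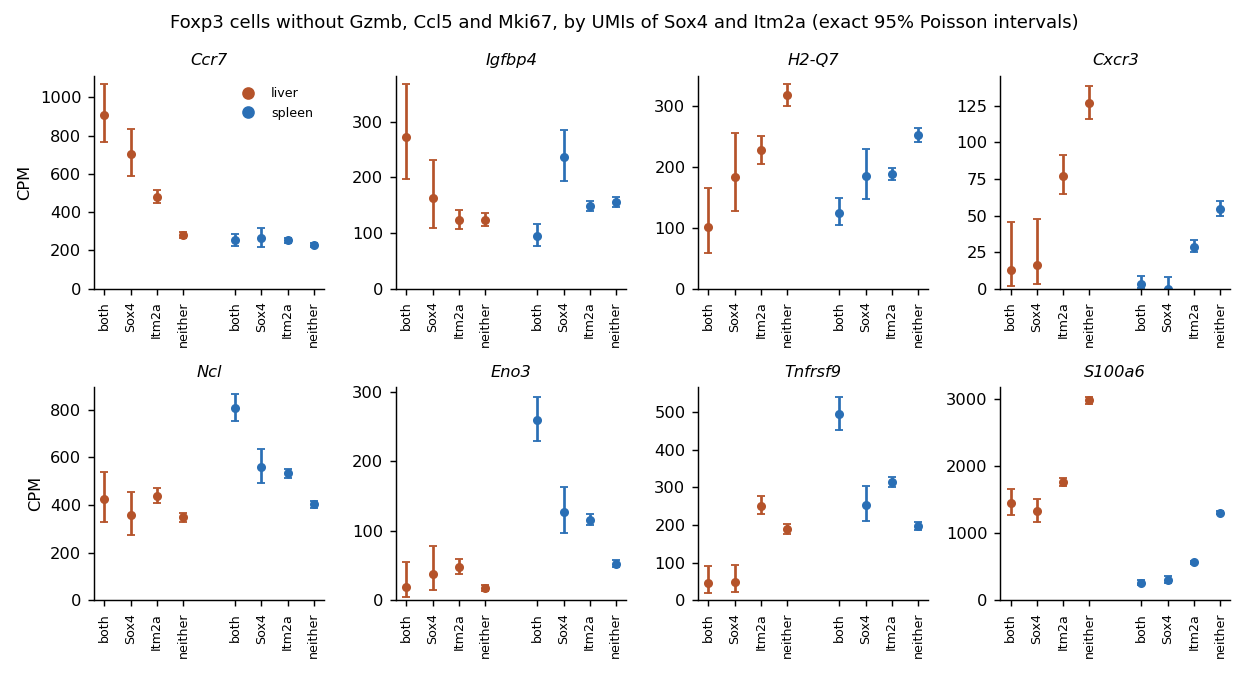
CPM (y axis) of 8 genes in neonatal Foxp3 cells without Gzmb, Ccl5 and Mki67, split by Sox4 and Itm2a RNA into both, Sox4 alone, Itm2a alone and neither, with exact 95% Poisson intervals. Ccr7 in liver has 907 CPM with both and 280 with neither, and H2-Q7 is lowest with both in each tissue, at 102 CPM in liver and 125 CPM in spleen.

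The receptor segments of the cells were varied. The 28 liver cells used 12 Trbv segments, with Trbv3 and Trbv19 the most frequent in 4 cells each (14.3%), and 136 spleen cells with a segment used 19, with Trbv3 in 17 (12.5%). The other Foxp3 cells used 22 segments in each tissue, and the set was not made of 1 receptor chain in either.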

How the data were processed

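Each library was a deposited matrix of raw UMI counts per gene and barcode, per the file headers the output of Cell Ranger 4.0.0. The submitters' processing notes name mm10 as the build and Seurat 4.0.2 as a further tool. The sources used here do not give their annotation release. The matrices listed 32285 features and barcodes from 500 UMIs upward, with no normalisation by the authors in the counts.

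Filters of 500 genes or more and 10% mitochondrial UMIs or less kept 5668 liver and 6178 spleen barcodes of the neonatal libraries, and 2424 liver and 6024 spleen barcodes of the 7-week libraries. UMIs were summed over the cells of a group and divided by the group's total (CPM). A gene was called at 25 CPM or more in the higher group and a ratio of at least 2-fold. A count of 0 was set to a floor of 3 counts, and the ratio is then a bound. Ratios have exact conditional binomial intervals, sums exact Poisson intervals and shares exact Clopper-Pearson intervals, all at 95%. UMIs are molecules, but the cells of a library share 1 preparation, so intervals cover counting error only.

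The comparison cells were the other Foxp3 cells of the same library and, as an alternative, those without Gzmb, Ccl5 and Mki67. The members, the 23 gene lists and the 14 marker lists were chosen with earlier results of these data known. Named genes were the 12 highest and 8 lowest ratios per library, and the 10 highest and 10 lowest of liver over spleen, with at least 30 UMIs, plus up to 4 genes per list with the largest absolute ratio. That choice left out sex-linked, haemoglobin, mitochondrial, ribosomal and unnamed genes, receptor segments and the 6 genes of the rule. A few others named in the text (Pik3ip1, Satb1, Ncl, Npm1, Nop2 and the like) were chosen after their values were seen.

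Doublet scores came from Scrublet in scanpy 1.11.5 with 0.8% of doublets assumed per 1000 cells. Its own cutoff marked 0 cells and thus did not work, so the top scores up to the assumed rate were taken, 257 cells in neonatal liver and 305 in neonatal spleen. None of the liver and 3 of the spleen Sox4 Itm2a cells were marked, and an alternative left marked cells out. Other alternatives changed the UMI threshold of the rule, the mitochondrial limit, the depth range, the scaling (TMM, edgeR 4.0.16), the CPM limit and the weight of each cell. The scripts (Python 3.11.15, numpy 2.4.6, scipy 1.17.1, pandas 2.3.3, matplotlib 3.10.9) were tested on simulated data. There, counting error alone led to calls for 9.68% of unchanged genes in the liver comparison and 0.0428% in the spleen comparison. For liver over spleen Sox4 Itm2a cells it was 12.5%. Positions are from GENCODE vM21 and promoters from RefSeq, both on GRCm38. The T cell receptor libraries were not analysed here.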

Additional observations from a re-analysis of the deposited data

Results flagged for a closer look

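Cdv3 and Rrp1b, a cofactor of ribosomal RNA processing, had ratios of opposite direction in the 2 tissues and were picked for that reason. The log2 ratio of Cdv3 in Sox4 Itm2a cells over the other Foxp3 cells was −1.22 in liver and 1.02 in spleen. That of Rrp1b was −2.0 in liver and 1.24 in spleen. Counting error alone led to calls for 9.68% of unchanged genes in the liver comparison, so these liver ratios are not by themselves differences. With 1 library per tissue the difference was not tested.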

How the results depend on the processing

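No paired analysis was possible because each group is 1 library. With 2 or more UMIs of both genes the share of Sox4 Itm2a cells was 0.120% in liver and 0.442% in spleen, with Gzmb, Ccl5 and Mki67 allowed 1.13% and 4.12%, thinned 0.262% and 0.917%, and without cells with markers of other lineages 4.29% in spleen (0.674% and 3.19% as reported).

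Genes called higher and lower numbered 495 and 576 in liver, 76 and 136 in spleen and 618 and 539 in liver over spleen. With 2 or more UMIs of both genes they were 1617 and 340, 302 and 507, and 2042 and 333. At 10 CPM they were 894 and 910, 162 and 330, and 1105 and 825. At 3000 to 6000 UMIs 884 were higher in liver, and 159 were higher and 206 lower in spleen. Under TMM 257 were higher and 782 lower in liver, and 398 and 645 in liver over spleen, where the all-gene median moved to −0.14. With totals without abundant classes 833 were higher and 589 lower in liver, and 122 higher in spleen. Without other lineages 806 were higher in liver and 136 in spleen. The mean of cell CPM gave 48 higher in spleen, and comparison cells without the excluded genes gave 68 lower in spleen. With at least 30 UMIs, chosen after seeing the data, 24 were higher in liver and 43 in liver over spleen. Leaving out the deepest cell of each library, also chosen after seeing the data, kept every count within 1.5 times, as did the 5% mitochondrial limit and leaving out marked doublets. The causes were not tested.

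Reversed log2 ratios were, with 2 or more UMIs, Btg2 −0.56, Id3 −0.15 and Lag3 0.45 in liver and Irf4 −0.33 in spleen. Against comparison cells without the excluded genes they were Cdk1 0.85 and Top2a 0.068 in liver, and Cenpf 0.80, Nusap1 0.86 and Birc5 0.23 in spleen. At 3000 to 6000 UMIs they were Ube2c 0.082 in liver and S100a6 −0.87 in liver over spleen. No named gene reversed under TMM, totals without abundant classes or the mean of cell CPM. Liver values are limited by 157619 UMIs in 28 cells.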

Other observations

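The rule removed cells with Mki67, and other genes of the cell cycle were read against cells chosen the same way. Against Foxp3 cells without the excluded genes, 5 of 16 proliferation genes were called higher in Sox4 Itm2a cells of the liver and 3 of 14 in spleen, beside 6.99% and 1.57% of all genes, with median log2 ratios of 0.59 and 0.66. Leaving out each cell in turn gave −0.23 to 0.67 in liver and 0.46 to 0.69 in spleen, so the direction of the liver median rests on 1 cell. Against all other Foxp3 cells the medians were −1.52 in liver and −1.06 in spleen. In liver 21 of the 29 Mcm6 UMIs, a helicase subunit of DNA replication, came from 1 cell.

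By their medians several Treg and receptor lists lay close to the other Foxp3 cells, but Treg identity genes stood lower in liver. Treg identity genes had medians of −0.31 in liver and −0.11 in spleen, T cell receptor complex genes 0.07 and −0.11, survival genes 0.00 and −0.04, and glycolysis genes −0.25 and 0.04. Nt5e, or CD73, was the 1 Treg identity gene of 13 called lower in spleen, beside 2.71% of all genes, at 6.82 against 29.0 CPM (4.24-fold lower). In liver 3 of 14 Treg identity genes were called lower and 1 higher, beside 10.4% and 8.96% of all genes. The liver median of this list ran from −0.515 to −0.226 when each cell was left out in turn. By cells, 9 of 28 in liver had a Treg identity level above the median of Foxp3 cells without the excluded genes. Il2ra was at 102 against 134 CPM in liver and 251 against 194 CPM in spleen (1.29-fold, 1.13 to 1.46). Penk, which encodes enkephalin, was at 320 against 250 CPM in spleen, with 123 of its 328 UMIs in 1 cell. Nkg7, a granule protein, was at 113 against 127 CPM in spleen and at 48.4 CPM in the cells without the excluded genes (2.34-fold).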
